A study of Mus musculus with 7 samples.

Results

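SREBP target genes are the enzymes and regulators of cholesterol and fatty acid synthesis, and 37 of them, listed by symbol, were taken from a table of 27179 rows of read counts in alveolar macrophages of mice. These cells are the phagocytes that live in the airspaces of the lung. The list holds 21 genes of the sterol branch and 16 of the fatty acid branch. RNA of sorted cells was sequenced from 4 wild-type (WT) and 3 Cish KO libraries, all from C57BL/6 mice 4 months old, and the labels name no treatment. Cish encodes a cytokine-inducible inhibitor of cytokine receptor signalling, and the labels do not say how it was deleted or whether mice were pooled. Cish itself was at 46.3, 29.6, 38.1 and 67.9 CPM in the WT libraries and 12.9, 14.3 and 10.9 CPM in the KO libraries. The genotypes did not overlap, although the gene narrowly missed the threshold of the test used here (log2 fold change -1.84, edgeR adjusted p 0.0519). CPM (counts per megaread) is the count divided by the library's total and scaling factor. All 37 symbols were present in the table and 35 had enough reads to be tested. Acacb and Thrsp did not pass the filter on low counts.

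Sterol regulatory element binding proteins (SREBPs) are transcription factors held in the membrane of the endoplasmic reticulum. When membrane sterol is scarce, the escort protein Scap carries them to the Golgi, where proteases release the active part, and Insig proteins hold the complex back when sterol is plentiful. The product of Srebf2 acts mainly on genes of cholesterol synthesis and that of Srebf1 mainly on genes of fatty acid synthesis, and Srebf1 is itself a target of the oxysterol receptor LXR. Alveolar macrophages take up and break down surfactant, a material rich in lipid and cholesterol.

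SREBPs bind promoters together with factors such as NF-Y, which recognises the CCAAT box. Stretches of promoter are shown for 5 members named below. They are RefSeq sequences of the build GRCm38.p6 and end at the base before the annotated start of the gene. Capitals mark matches to TCACNCCAC (a sterol regulatory element), to CCAAT or to CACGTG (an E-box), on either strand.
Hmgcs1 (chr13:119690171-119690350, plus strand): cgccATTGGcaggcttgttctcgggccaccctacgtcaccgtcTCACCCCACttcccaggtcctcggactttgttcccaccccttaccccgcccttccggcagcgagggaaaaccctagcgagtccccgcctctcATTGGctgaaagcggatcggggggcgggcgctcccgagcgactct
Msmo1 (chr8:64733579-64733698, minus strand): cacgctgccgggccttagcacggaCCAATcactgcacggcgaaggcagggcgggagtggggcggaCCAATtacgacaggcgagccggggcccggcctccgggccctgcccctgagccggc
Mvd (chr8:122443423-122443542, minus strand): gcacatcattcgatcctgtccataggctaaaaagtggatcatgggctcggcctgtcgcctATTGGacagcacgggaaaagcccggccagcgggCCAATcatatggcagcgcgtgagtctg
Insig1 (chr5:28071292-28071411, plus strand): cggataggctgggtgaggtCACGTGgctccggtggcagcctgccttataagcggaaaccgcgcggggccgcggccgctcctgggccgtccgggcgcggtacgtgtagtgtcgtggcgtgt
Elovl5 (chr9:77917245-77917364, plus strand): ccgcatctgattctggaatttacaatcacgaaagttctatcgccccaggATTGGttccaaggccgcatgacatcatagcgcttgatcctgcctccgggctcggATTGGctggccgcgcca
Promoter windows, from 250 bases before the start to 50 after, were matched for 30 of the 37 members. The members with no window were Fdps, Fdft1, Sqle, Stard4, Scd1, Scd2 and Fads1. A CCAAT box on either strand was in 16 of 20 windows of the sterol branch (80%) and in 11 of 18 windows of the fatty acid branch (61.1%), against 37.4% of all 32851 windows. TCACNCCAC was found only in the window of Hmgcs1 among the members, 137 bases before the start, and in 1.24% of all windows. CACGTG was in 4 of 20 sterol windows (20%) and 1 of 18 fatty acid windows (5.56%), against 7.15% of all. Among the 12332 windows of genes tested, the shares were 38.05% for CCAAT, 1.08% for TCACNCCAC and 10.08% for CACGTG. The stretches shown hold 2 of the 4 CCAAT matches in the window of Hmgcs1, 2 of 3 for Msmo1 and 0 of 1 for Insig1. Those of Mvd and Elovl5 hold all of theirs. These are matches of letters and say nothing of binding in these cells.

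Total counts per library were 26780291 to 34483612. The first principal component (42.6% of variance) placed WT 4 at 7.27, between the other WT libraries and the KO libraries. On the second (19.5%), WT 4, KO 3 and WT 1 lay at 26.4, 24.5 and 14.3 and the other 4 libraries at -27.7 to -11.7. WT 4 and KO 3 are the last columns of the table, and the labels name no batch. The median of each branch is given with and without these 2 libraries.

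Between the genotypes, no gene of either branch passed the test. The edgeR quasi-likelihood test with Benjamini-Hochberg adjustment over all 12759 genes tested called 0 of 35 members, and it called 0.0862% of all genes (11 genes, 0.047% higher and 0.0392% lower in KO). At an unadjusted p below 0.05 there were 3 of 21 sterol members, all higher in KO, and 2 of 14 fatty acid members, 1 in each direction. Of all genes tested, 18% had such a p, 9.15% higher and 8.85% lower in KO. DESeq2 called 1 member, Elovl5, which was lower in KO, and 6.11% of all genes (775 of 12686), with 2.88% higher and 3.23% lower. The voom method of limma called 0 members, and 46 of all 12759 genes. The 2 genotypes did not overlap for 2 members, Fads2, higher in KO (7.23% of all genes tested), and Elovl5, lower in KO (8.72%), where 16% of all genes did not overlap in either direction. The median log2 fold change was 0.14 in the sterol branch (16 of 21 higher in KO) and -0.042 in the fatty acid branch (7 of 14 higher). It was 0.0030 over all genes tested, of which 50.5% were above 0 and 49.5% below. In RNA of a sorted population, fewer cells of a type and less RNA per cell cannot be told apart.

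**Figure D1:**
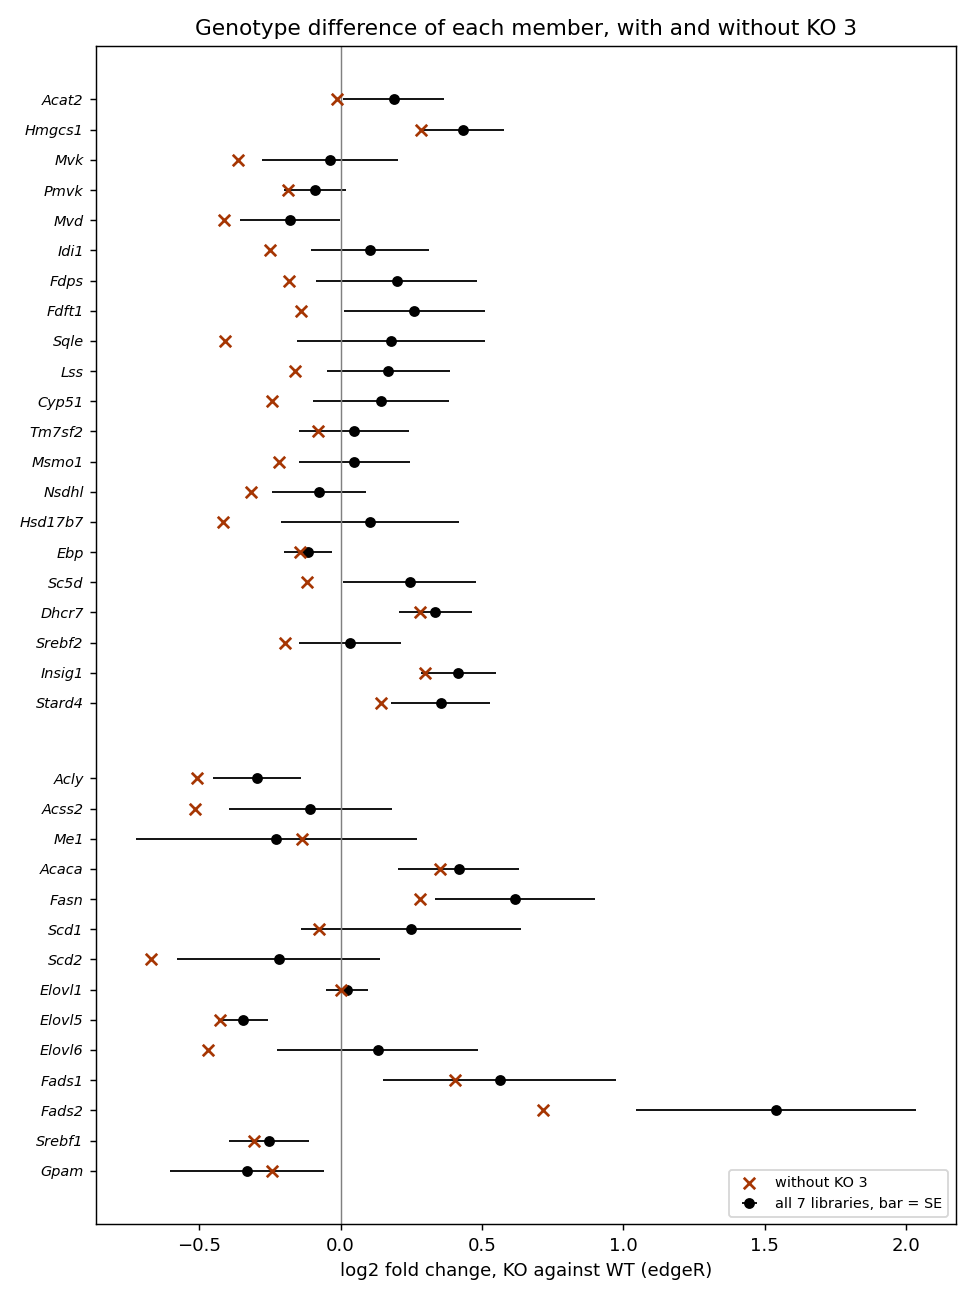
log2 fold change of KO against WT for the 35 tested members (x axis), one row per gene, with the sterol branch above the gap and the fatty acid branch below it. Points with bars are the edgeR estimate ± SE over all 7 libraries and crosses the estimate without KO 3; 17 of the 21 sterol crosses lie below 0, where 5 of the points do.

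The early, mevalonate arm of sterol synthesis runs from acetyl-CoA to the isoprenoid units. Hmgcs1, the synthase that feeds this arm, was at 131, 99.8, 111 and 132 CPM in WT 1 to WT 4, and at 159, 129 and 191 CPM in KO 1 to KO 3. Of the KO libraries, KO 1 and KO 3 stood above every WT library and KO 2 lay within the WT range. The means were 118 ± 15.9 CPM for WT (SD, n = 4) against 159.8 ± 31.004 CPM for KO (SD, n = 3). The log2 fold change was 0.43 ± 0.15 (SE), and the adjusted p was 0.182 in edgeR and 0.0762 in DESeq2. Acat2, which joins acetyl-CoA units, was at 36.98, 26.04, 31.4 and 35.8 CPM in WT 1 to WT 4, and at 36.4, 28.1 and 46.7 CPM in KO 1 to KO 3. Only KO 3 was outside the WT range of Acat2 (log2 fold change 0.19 with an SE of 0.18, adjusted p 0.614 by edgeR). The kinases Mvk and Pmvk, the decarboxylase Mvd, the isomerase Idi1 and the synthase Fdps had log2 fold changes of -0.037, -0.091, -0.18, 0.10 and 0.20. Their adjusted p values by edgeR were 0.956, 0.705, 0.629, 0.832 and 0.758. In this arm 4 of 7 genes were higher in KO and 3 lower, and none passed.

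The later arm turns farnesyl units into squalene, lanosterol and cholesterol. Dhcr7, a reductase at the end of that route, was at 69.3, 56.8, 63.1 and 76.5 CPM in WT 1 to WT 4, and at 91.7, 69.6 and 90.1 CPM in KO 1 to KO 3. Again KO 1 and KO 3 exceeded every WT library, and KO 2 lay among them (log2 fold change 0.33 with an SE of 0.13, adjusted p 0.222 by edgeR). Ebp, the sterol isomerase a few steps earlier, was at 84.7, 81.1, 86.5 and 93.7 CPM in WT 1 to WT 4, and at 83.5, 73.002 and 82.8 CPM in KO 1 to KO 3. The groups of Ebp overlapped (log2 fold change -0.12 with an SE of 0.085, adjusted p 0.504 by edgeR). Msmo1, which removes methyl groups from the sterol ring and had the most reads of the branch, was at 171, 125, 157 and 178 CPM in WT 1 to WT 4, and at 152, 119.5 and 218 CPM in KO 1 to KO 3. Its KO libraries included both the highest and the lowest of the 7 values, and the means were 158 ± 23.8 CPM for WT (SD, n = 4) against 163 ± 50.2 CPM for KO (SD, n = 3). The log2 fold change was 0.049 ± 0.20 (SE). Of the 11 genes of this arm 9 had a log2 fold change above 0, with a range from -0.12 to 0.33.

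The regulators of the branch are Srebf2, the sterol-sensing brake Insig1 and the cholesterol carrier Stard4, and SREBPs themselves induce all 3. Insig1 was at 63.95, 52.5, 68.4 and 61.2 CPM in WT 1 to WT 4, and at 85.3, 66.1 and 94.9 CPM in KO 1 to KO 3. Values above every WT library were again those of KO 1 and KO 3, and KO 2 lay below WT 3. Hmgcs1, Dhcr7 and Insig1 had the smallest p of their role groups. KO 1 was above every WT library for only these 3 of 21 sterol members (14.3%, against 28.3% of all genes tested). KO 3 was so for 19 of 21 (90.5%, against 22.3%). The means of Insig1 were 61.5 ± 6.67 CPM for WT (SD, n = 4) against 82.1 ± 14.7 CPM for KO (SD, n = 3). The log2 fold change was 0.42 ± 0.13 (SE), with the smallest adjusted p of the sterol branch in edgeR (0.164) and 0.0654 in DESeq2. Stard4 was at 10.2, 10.004, 12.98 and 12.8 CPM in WT 1 to WT 4, and at 12.6, 12.7 and 18.7 CPM in KO 1 to KO 3. The values of KO 1 and KO 2 lay within the WT range and that of KO 3 above it (log2 fold change 0.35 with an SE of 0.18, adjusted p 0.328 by edgeR). Srebf2 was at 38.9, 46.7, 42.3 and 44.1 CPM in WT 1 to WT 4, and at 44.8, 30.2 and 56.8 CPM in KO 1 to KO 3. The KO libraries of Srebf2 spanned a wider range than WT on both sides, and the log2 fold change was 0.032 ± 0.18 (SE).

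**Figure D2:**
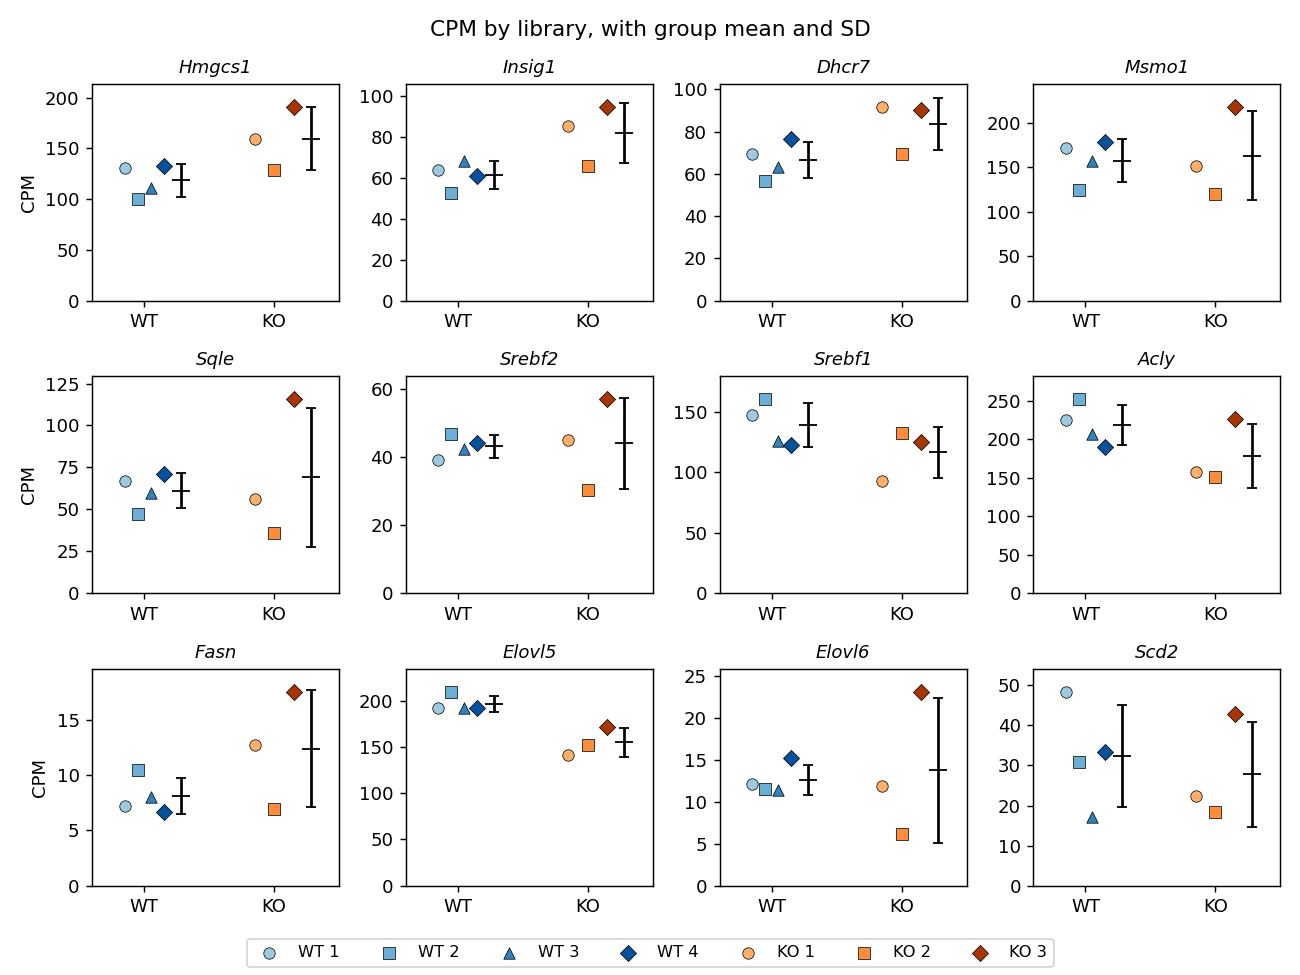
CPM (y axis, from 0) of 12 members in the 4 WT and 3 KO libraries; each symbol is 1 library, and the bar beside each group is the mean ± SD. KO 3 is the highest KO library for 10 of the 12 genes, the exceptions being Dhcr7 and Srebf1.

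The sterol members varied together among the KO libraries, a pattern chosen for description after its values were seen. Genes of 1 library share its preparation, so these counts describe libraries and are no test. KO 3 was above KO 2 for 21 of 21 sterol members, as it was for 50.3% of all genes tested. KO 3 was the highest of all 7 libraries for 18 of 21 (11.6% of all genes), the exceptions being Pmvk, Ebp and Dhcr7. KO 2 was the lowest of all 7 for 14 of 21 (12.9% of all genes). The median ratio of KO 3 to KO 2 was 1.82 in the sterol branch and 1.00 over all genes tested. Sqle, the squalene epoxidase that is a rate-limiting step of the later arm, was at 66.9, 46.9, 59.8 and 70.8 CPM in WT 1 to WT 4, and at 56.1, 35.8 and 116 CPM in KO 1 to KO 3, a ratio of 3.23 between KO 3 and KO 2. Hsd17b7, a ketosteroid reductase, varied little in WT, and was at 16.3, 16.1, 16.003 and 16.7 CPM in WT 1 to WT 4, and at 15.98, 8.39 and 28.1 CPM in KO 1 to KO 3. Its KO 1 lay just under the WT values, while KO 2 and KO 3 lay 3.35-fold apart. The ratio of KO 3 to KO 2 was smallest for Ebp (1.13), Pmvk (1.16) and Dhcr7 (1.29).

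Among the WT libraries the same genes also varied together, within a narrower range. WT 4 was above WT 2 for 20 of 21 sterol members (50.6% of all genes tested), Srebf2 being the exception, with a median ratio of 1.28. WT 2 was the lowest WT library for 15 of 21 (25.4% of all genes). The mean log2 CPM of the 21 members was 5.34, 5.06, 5.26 and 5.41 for the WT libraries in order, and 5.30, 4.95 and 5.81 for KO 1 to KO 3. Averaged by genotype it was 5.27 (SD 0.15, n = 4) for WT against 5.35 (SD 0.43, n = 3) for KO, so the difference between genotypes was smaller than the SD of either.

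The direction of the branch rested on KO 3. Without KO 3 the median log2 fold change of the sterol members was -0.18, with 4 of 21 higher in KO, and those 4 were Hmgcs1 (0.28), Insig1 (0.30), Dhcr7 (0.28) and Stard4 (0.14). Without KO 2 it was 0.36, with 18 higher. Without WT 2 it was 0.072. Without WT 4 and without KO 1 it was 0.21 and 0.20. Without both WT 4 and KO 3 it was -0.10, with 5 of 21 higher. WT 4, KO 3 and WT 1, the 3 libraries at the high end of the second principal component, also had the highest sterol means. Over all settings tried, 0 sterol members were called. These included the fits without WT 4, where 284 of 12610 genes were called, and without KO 3, where 217 of 13031 were.

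**Figure D3:**
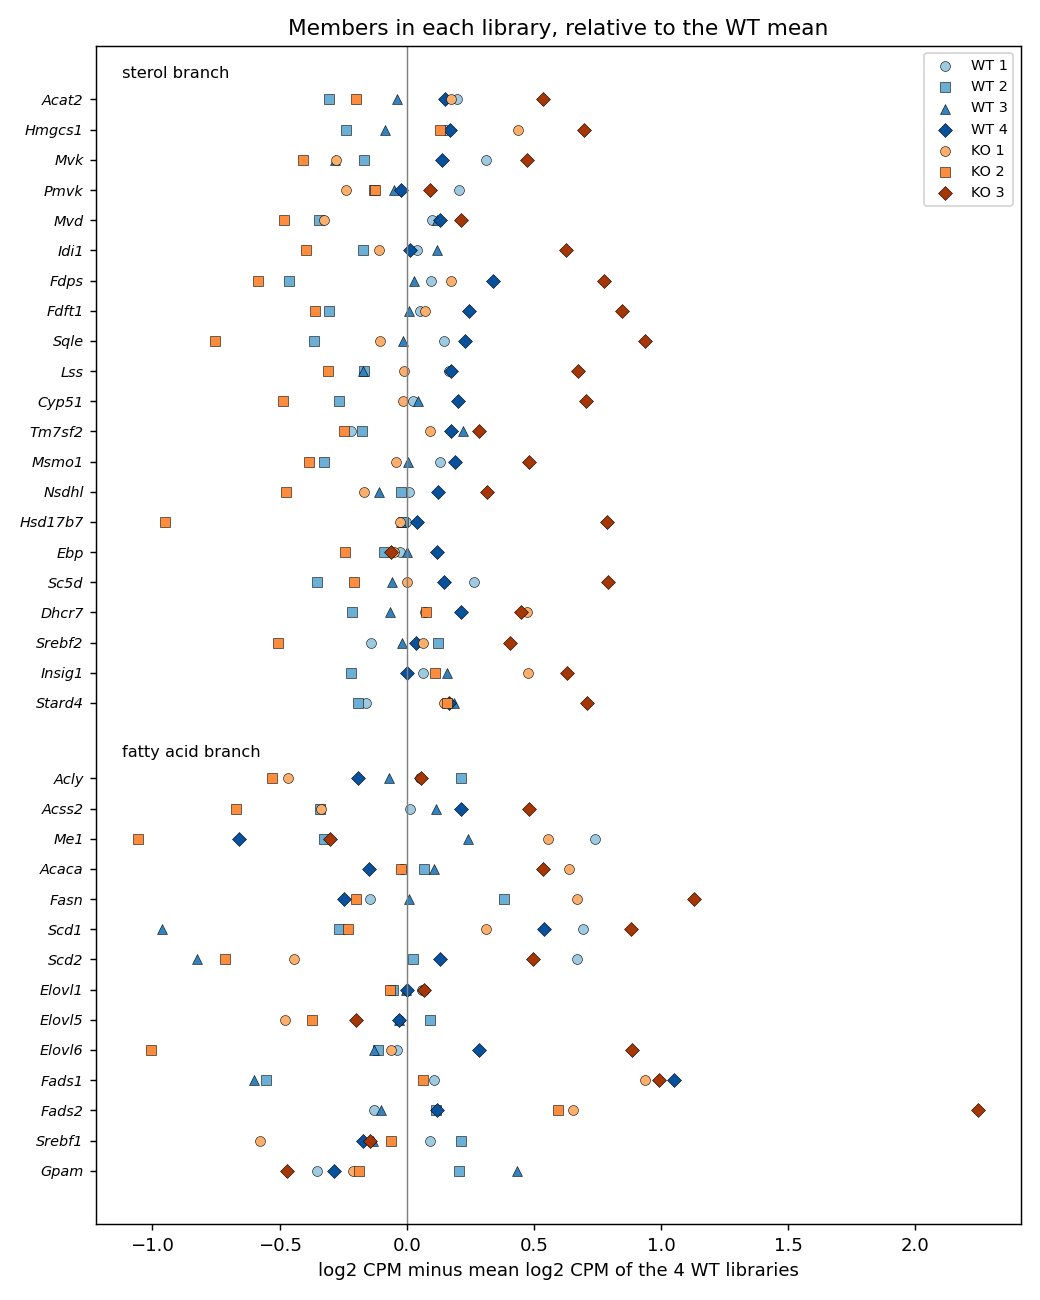
log2 CPM of the 35 tested members in each library minus the mean of the 4 WT libraries (x axis), one row per gene. Blue symbols are WT and orange to brown symbols KO; in the sterol branch KO 3 (brown diamonds) lies right of KO 2 (orange squares) in all 21 rows.

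In the fatty acid branch, the genes that supply acetyl-CoA and NADPH had estimates below 0 over all 7 libraries, and none passed. Acly, which cuts citrate into acetyl-CoA in the cytosol, was at 225, 252, 207 and 190.4 CPM in WT 1 to WT 4, and at 157, 151 and 226 CPM in KO 1 to KO 3. Both KO 1 and KO 2 were below every WT library of Acly, whereas KO 3 was level with WT 1. For Acly the estimate was -0.30 ± 0.16 (SE) on the log2 scale, with an edgeR adjusted p of 0.354. It was -0.51 without KO 3 (edgeR adjusted p 0.0885) and -0.57 without both WT 4 and KO 3, where Acly passed (edgeR adjusted p 0.0396). That last fit called 590 of 12906 genes, and it left out the lowest WT and the highest KO value of Acly. Acss2, which makes acetyl-CoA from acetate, had a log2 fold change of -0.11, with a direction that depended on single libraries. It was 0.11 without KO 2, 0.0037 without KO 1 and -0.51 without KO 3. Malic enzyme Me1 was near the filter limit, with 54, 22, 33 and 17 reads in WT 1 to WT 4 and 40, 10 and 19 reads in KO 1 to KO 3. Its groups overlapped (log2 fold change -0.23 with an SE of 0.50, adjusted p 0.847 by edgeR).

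Fatty acid synthase and its carboxylase were low in these cells. Fasn was at 7.19, 10.4, 8.02 and 6.70 CPM in WT 1 to WT 4, and at 12.7, 6.92 and 17.5 CPM in KO 1 to KO 3. As in Hmgcs1, 2 KO libraries were above every WT library and KO 2 within the WT range. The means were 8.08 ± 1.65 CPM for WT (SD, n = 4) against 12.4 ± 5.30 CPM for KO (SD, n = 3) (log2 fold change 0.62 with an SE of 0.28, adjusted p 0.295 by edgeR). The Fasn estimate was 0.28 without KO 3, 0.90 without KO 2 and 0.20 without both WT 4 and KO 3. Acaca, the carboxylase that makes malonyl-CoA for synthesis, was at 2.88, 3.06, 3.15 and 2.63 CPM in WT 1 to WT 4, and at 4.59, 2.88 and 4.27 CPM in KO 1 to KO 3. It had the same order of genotypes in KO 1 and KO 3 (log2 fold change 0.42 with an SE of 0.21, adjusted p 0.340 by edgeR). Acacb, the mitochondrial form, had 0, 0, 1 and 2 reads in WT and 4 reads in each KO library, too few to compare.

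Elovl5, an elongase of polyunsaturated fatty acids, had the smallest p of all members. It was at 193, 209.6, 192 and 193 CPM in WT 1 to WT 4, and at 141, 152 and 171 CPM in KO 1 to KO 3. Every KO library was below every WT library. The means were 197 ± 8.51 CPM for WT (SD, n = 4) against 155 ± 15.3 CPM for KO (SD, n = 3). The log2 fold change was -0.35 ± 0.088 (SE), and its adjusted p was 0.111 in edgeR, which did not pass, and 0.0136 in DESeq2, which did. It was called in 1 of 16 alternatives, DESeq2, and its estimate lay between -0.43 and -0.28 over the 16, with adjusted p from 0.0136 to 0.455. Elovl5 lies on chromosome 9 at 77917365 to 77984519 (GRCm38.p6), 29.3 Mb from Cish. The members Me1 and Sc5d lie on the same chromosome, 20.6 and 65.03 Mb from Cish, and Scap, outside the list, 3.03 Mb from it. None of these other genes was called by edgeR or DESeq2.

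Fads2, a desaturase of polyunsaturated fatty acids, was barely detected, with 10, 11, 9 and 11 reads in WT and 16, 13 and 47 in KO. All 3 KO libraries were above WT, and the log2 fold change was 1.54 ± 0.50 (SE), with an edgeR adjusted p of 0.165. Without KO 3 the estimate was 0.72. Its partner Fads1 was at 4.92, 3.09, 2.99 and 9.54 CPM in WT 1 to WT 4, and at 8.81, 4.78 and 9.16 CPM in KO 1 to KO 3, with overlap between the groups and WT 4 as the highest library. Elovl1, an elongase of very long saturated chains with the most reads of the branch, was at 223, 206, 214 and 214 CPM in WT 1 to WT 4, and at 225, 205 and 225 CPM in KO 1 to KO 3. It hardly varied in either genotype, and its log2 fold change was 0.023 (SE 0.075).

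The stearoyl-CoA desaturases and Elovl6, which lengthens palmitate, varied between libraries of both genotypes. Elovl6 was at 12.1, 11.5, 11.4 and 15.2 CPM in WT 1 to WT 4, and at 11.9, 6.18 and 23.1 CPM in KO 1 to KO 3, with KO 3 the highest and KO 2 the lowest of the 7. Scd1 was at 21.4, 10.97, 6.74 and 19.2 CPM in WT 1 to WT 4, and at 16.4, 11.3 and 24.4 CPM in KO 1 to KO 3. Scd2 was at 48.4, 30.9, 17.1 and 33.3 CPM in WT 1 to WT 4, and at 22.3, 18.5 and 42.8 CPM in KO 1 to KO 3. WT 3 was the lowest of the 7 libraries for both desaturases, and the KO values lay within the WT range except KO 3 of Scd1. The pair are close paralogs on chromosome 19, and reads could be shared between them. Their log2 fold changes were 0.25 (SE 0.39) and -0.22 (SE 0.36), and single libraries turned the direction of both. Scd1 was at -0.076 without KO 3, 0.013 without WT 3 and 0.49 without WT 1. Scd2 was at -0.67 without KO 3 and 0.041 without WT 1.

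Srebf1, the factor named for this branch, did not follow the sterol genes. It was at 147, 161, 126 and 123 CPM in WT 1 to WT 4, and at 92.9, 133 and 125 CPM in KO 1 to KO 3. KO 1 had the lowest value, KO 2 and KO 3 lay within the WT range, and KO 2 was above KO 3 (log2 fold change -0.25 with an SE of 0.14, adjusted p 0.385 by edgeR). Uncorrected for gene length, reads of Srebf1 were 2.79 to 3.79 times those of Srebf2 in WT and 2.07, 4.39 and 2.20 times in KO 1 to KO 3, so KO 2 held the highest ratio and the other KO libraries the lowest ratios of the 7. Gpam, which attaches the first acyl chain to glycerol phosphate, was at 1.76, 2.63, 3.09 and 1.85 CPM in WT 1 to WT 4, and at 1.95, 1.98 and 1.62 CPM in KO 1 to KO 3. All KO values of Gpam lay below 2 of the 4 WT libraries and near the others (log2 fold change -0.33 with an SE of 0.27, adjusted p 0.557 by edgeR). Thrsp, a lipogenic cofactor of liver and fat, had 5 reads in WT 3, 1 in KO 1 and 0 elsewhere.

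The mean levels of the 2 branches had the same extreme libraries. The mean log2 CPM of the 14 tested fatty acid members was 3.77, 3.62, 3.51 and 3.69 for the WT libraries in order, and 3.74, 3.33 and 4.12 for KO 1 to KO 3. By these means, KO 3 was the highest and KO 2 the lowest of the 7 libraries in both branches. Gene by gene this held less widely in the fatty acid branch, where KO 3 was the highest of all 7 for 5 of 14 members (11.6% of all genes tested) and KO 2 the lowest for 5 of 14 (12.9%), against the 18 and 14 of 21 sterol members. The branch mean gives every member equal weight, whatever its reads. By summed CPM, KO 3 was the highest library for the carboxylases and synthase (21.9 CPM). It was below WT 2 for acetyl-CoA and NADPH supply (232 against 255 CPM) and for the regulators and acylation (127 against 163 CPM). For elongation and desaturation it was below WT 1 (497 against 503 CPM). The median log2 fold change of the fatty acid members was -0.19 without KO 3 and -0.33 without both WT 4 and KO 3. Between the extremes the order of the branch means differed, since WT 2 was the lowest WT library of the sterol branch and WT 3 that of the fatty acid branch. KO 3 was above KO 2 for 12 of 14 fatty acid members (50.3% of all genes tested), the exceptions being Srebf1 and Gpam. WT 4 was above WT 2 for 7 of 14 (50.6% of all genes), with Fasn (ratio 0.643), Acly (0.757), Srebf1 (0.765) and Acaca (0.858) among the lower ones. Fads1 (3.08), Scd1 (1.75) and Acss2 (1.48) had the highest ratios. Within WT, then, the shared order of the sterol genes did not extend to Fasn, Acly and Acaca.

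**Figure D4:**
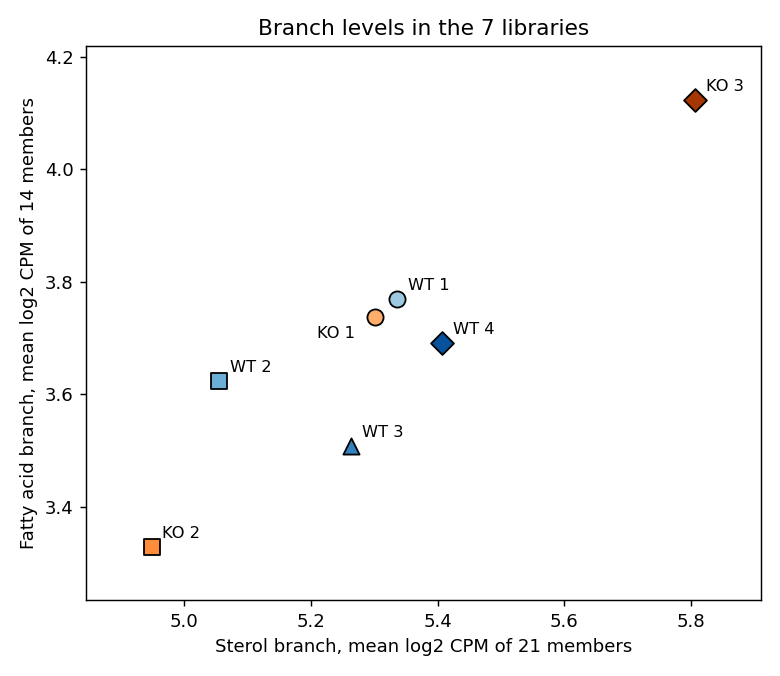
Mean log2 CPM of the 21 sterol members (x axis) and of the 14 tested fatty acid members (y axis), 1 point per library. KO 3 lies at 5.81 and 4.12 and KO 2 at 4.95 and 3.33, at opposite ends of both axes, with the other 5 libraries between them.

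The other genes of the pathway are read against the shares over all genes tested, which were 0.0862% called by edgeR, 6.11% called by DESeq2, 18% at an unadjusted p below 0.05 and 49.5% lower in KO. Among 10 genes of SREBP processing, edgeR and DESeq2 called 0, with 3 at an unadjusted p below 0.05 by edgeR (30% of the list, against 18%). Sec24d, a coat protein of vesicles leaving the endoplasmic reticulum, was at 38.7, 27.8, 28.4 and 31.1 CPM in WT 1 to WT 4, and at 45.2, 36.02 and 43.1 CPM in KO 1 to KO 3 (log2 fold change 0.40 with an SE of 0.13, adjusted p 0.178 by edgeR). Mbtps1, the Golgi protease that makes the initial cut in SREBPs, was at 36.8, 42.3, 39.96 and 34.4 CPM in WT 1 to WT 4, and at 32.1, 30.96 and 33.6 CPM in KO 1 to KO 3, lower in every KO library than in every WT library (log2 fold change -0.25 with an SE of 0.092, adjusted p 0.203 by edgeR). Of 14 further sterol genes, edgeR called 0, with 2 at an unadjusted p below 0.05 (14.3%, against 18%), and DESeq2 called 1 (7.14%, against 6.11%). These shares were near those of all genes. Cyb5r3, which passes electrons to desaturases and sterol oxidases, was called lower by DESeq2 (adjusted p 0.000976), at 589.8, 617, 608 and 652 CPM in WT 1 to WT 4, and at 477, 471 and 506 CPM in KO 1 to KO 3. Its groups did not overlap (log2 fold change -0.35 with an SE of 0.076, adjusted p 0.0950 by edgeR).

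Of 15 further fatty acid genes tested, edgeR called 0, with 4 at an unadjusted p below 0.05 (26.7%, against 18% of all genes), and DESeq2 called 1 (6.67%, against 6.11%). Dgat1, an enzyme of the last step of triglyceride synthesis, was the DESeq2 call, at 64.9, 44.7, 59.1 and 60.6 CPM in WT 1 to WT 4, and at 88.2, 83.3 and 77.7 CPM in KO 1 to KO 3. All KO libraries were above WT, and the adjusted p was 0.0975 in edgeR and 0.00603 in DESeq2. The log2 fold change was 0.53 ± 0.12 (SE). Agpat2, an acyltransferase that acts after Gpam, was at 18.4, 14.9, 19.5 and 15.99 CPM in WT 1 to WT 4, and at 10.9, 13.4 and 14.7 CPM in KO 1 to KO 3, all KO libraries being lower than WT (log2 fold change -0.41 with an SE of 0.14, adjusted p 0.192 by edgeR). LXR genes and targets outside the SREBP list gave 0 calls of 8 by both tools (0.0862% and 6.11% of all genes), with 2 at an unadjusted p below 0.05 by edgeR (25%, against 18%) and 7 of 8 lower in KO (87.5%, against 49.5%). Lpcat3, which builds polyunsaturated phospholipids, was at 238, 222, 201 and 216 CPM in WT 1 to WT 4, and at 179, 186 and 188 CPM in KO 1 to KO 3, without overlap (log2 fold change -0.25 with an SE of 0.082, adjusted p 0.169 by edgeR). Mylip, a ubiquitin ligase of lipoprotein receptors, was at 63.8, 68.7, 61.3 and 57.2 CPM in WT 1 to WT 4, and at 31.9, 60.3 and 36.5 CPM in KO 1 to KO 3, with KO 2 inside the WT range and the other KO libraries below it (log2 fold change -0.55 with an SE of 0.20, adjusted p 0.192 by edgeR).

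Apart from the read ratios of Srebf1 to Srebf2 and the members named for most reads, levels were compared between genes per kilobase of annotated exon. On that scale the mean WT levels of the branch leaders were 111 CPM per kb for Elovl1, 77.1 for Msmo1, 70.8 for Elovl5, 49.6 for Ebp, 48.3 for Mvd and 47.4 for Acly. Fasn was at 0.804 and Acaca at 0.308 CPM per kb. Srebf1 was at 32.4 ± 4.15 (SD, n = 4) and Srebf2 at 8.47 ± 0.644 CPM per kb, so Srebf1 was the more abundant message of the 2 factors in WT. Exons of 12 members overlapped another annotated gene, among them Fdft1 with Ctsb, Cyp51 with Akap9 and Srebf1 with Rai1, each on the opposite strand, and the library kit does not mark strand.

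All 12 alveolar macrophage markers were present in each library, with a sum of 21049 to 56598 CPM in WT and 45941 to 79424 CPM in KO, most of it Chil3 and highest in KO 3. The sum hides markers that went the other way, as 4 of the 12 had lower estimates in KO (33.3%, against 49.5% of all genes tested). By edgeR 0 were called (0.0862% of all genes), with 4 higher and 3 lower at an unadjusted p below 0.05 (58.3%, against 18%). DESeq2 called 3 markers lower and 1 higher (33.3%, against 6.11%). Those lower were Siglecf, with a mean of 559 CPM in WT and 419.9 in KO, Ear1 with 771 and 596, and Fcgr1 with 57.96 and 41.8, and the higher one was Mrc1 with 515 and 630.1. Markers of alveolar type 2 cells, which make surfactant and express SREBP targets, summed over 8 of 8 genes to 36.2 to 81.9 CPM in WT and 120.04, 99.7 and 50.9 CPM in KO 1 to KO 3. Within KO these markers were lowest in KO 3, the library highest in sterol genes. Within WT they were highest in WT 4 (81.9 CPM), which had the highest sterol mean of the WT libraries. Hemoglobin and Alas2 reads of red cells summed to 13.5 to 348 CPM in WT and 284 to 855 CPM in KO, highest in KO 2. KO 2, the library lowest in sterol genes, was also the highest of all 7 in airway epithelium markers (43.2 CPM, against 1.56 to 14.7 CPM in WT) and fibroblast markers (12.2 CPM, against 1.15 to 6.51 CPM in WT). Endothelial markers summed to 11.7 to 15.8 CPM in WT and 17.3 to 31.2 CPM in KO, without overlap of the genotypes. All 5 were higher in KO at an unadjusted edgeR p below 0.05 (100%, against 18% of all genes). DESeq2 called 3 of the 5 (60%, against 6.11%) and edgeR 0. Adipocyte markers summed over 4 genes to 2.25 to 4.25 CPM in WT and 2.02 to 6.18 CPM in KO, highest in KO 2. Of these, Adipoq was at 0 in all libraries except WT 3. Dendritic cell markers summed to 6.04, 4.53, 4.74 and 6.23 CPM in WT 1 to WT 4, and to 6.01, 3.42 and 8.13 CPM in KO 1 to KO 3. Their order over the 7 libraries was that of the sterol means. B cell markers summed to 4.29 to 9.50 CPM in WT and 4.34 to 20.1 CPM in KO, highest in KO 2. Sums for T cell, neutrophil and eosinophil markers overlapped between the genotypes. The part of these differences in the sterol and fatty acid values was not tested.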

How the data were processed

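Alveolar macrophage RNA was sequenced in 4 WT and 3 KO libraries. The authors deposited raw read counts per gene symbol, counted with rsubread per the file name, and the submitters' processing notes name the build mm10 and DESeq2. Aligner settings, annotation and the handling of reads with several matches are not given in the labels or headers used here. Rows with no symbol (1036, 0.376% to 0.424% of counts) were left out.

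Counts were fitted in R 4.3.3 with edgeR 4.0.16 (filterByExpr, TMM factors, quasi-likelihood F test on genotype, 5 residual degrees of freedom), with p adjusted over all 12759 genes tested and called below 0.05. Log2 CPM used a prior count of 2. SE is the log2 fold change divided by the root of F. Alternatives were DESeq2 1.42.0, limma 3.58.1 (voom with quality weights), other scaling factors and filters, the replicate block and libraries left out. On simulated counts of 12759 genes for this comparison, edgeR recovered 71% of the 2-fold and 88% of the 4-fold changes and made 18 false calls. Each gene was drawn independently there, without the shared movement by library seen in the members, and no change below 2-fold was simulated. These rates therefore do not tell how many changes of the members would be found.

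Exon lengths were the union of GENCODE M21 exons, and positions and promoters RefSeq GRCm38.p6. Members and lists were chosen with earlier results of these data known. Values per library are given for the 2 members with the smallest p in each of 7 role groups, for Srebf1, Srebf2, Insig1 and the member with most reads per branch, and for the 2 genes with the smallest p of each other list. One gene that this rule picks is not reported here. Sqle, Hsd17b7, Elovl6, Fads1, Scd1 and Scd2 were added after their values were seen, as were the promoters of Mvd, Msmo1, Insig1 and Elovl5, since only Hmgcs1 met the rule of holding TCACNCCAC. Nothing says that the libraries came from separate mice, so the p-values refer to the spread among these libraries, which may be technical.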

Additional observations from a re-analysis of the deposited data

Results flagged for a closer look

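Among 45 sets of 4 WT values checked for a library far from the others, 2 stood out, where chance gives about 1 in 20. Mvd was at 66.1 CPM in WT 2, far below the 90.0 to 91.8 CPM of the other WT libraries. Elovl5 was at 209.6 CPM in WT 2, above the 192 to 193 CPM of the others, and without WT 2 its log2 fold change was -0.31, with the KO libraries still lower.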

How the results depend on the processing

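Of 396 refits of named genes, 380 kept their direction and side of the threshold, 11 changed direction and 5 came to pass. None of these genes passed in the main fit, most were picked for a small p, and the refits share libraries. The tally is therefore no measure of how stable the branches were. The number of genes called over the whole table, 11, was 775 with DESeq2, 397 with no filter, 21 with at least 5 CPM in 3 libraries and 46 with voom, and 7 to 284 with 1 library left out (284 without WT 4, 217 without KO 3). It was 590 without both. Sterol members called were 0 in all 16 alternatives. Fatty acid members called were 1 with DESeq2 (Elovl5), 1 without both WT 4 and KO 3 (Acly), and 0 with any 1 library left out. With 1 library left out, the sterol median log2 fold change ran from -0.18 (without KO 3) to 0.36 (without KO 2) and the fatty acid median from -0.19 to 0.10; without both libraries the fatty acid median was -0.33. Ranges with 1 library left out were -0.013 to 0.35 for Acat2, -0.79 to 0.097 for Me1, -0.20 to 0.24 for Srebf2 and -0.22 to 0.23 for Msmo1, and without both libraries Srebf2 was at -0.18 and Msmo1 at -0.15. Scaling by library size alone put Srebf2 at -0.015 and Elovl1 at -0.027 and the median of all genes at -0.05. The cause of these changes was not tested. Shared replicate numbers did not pair the libraries (correlations -0.01, 0.14 and -0.02 between same-numbered libraries). A fit with the replicate block called 430 of 12759 genes and 0 members. Replicate 4 has no KO library, so WT 4 added nothing to the genotype difference in that fit, and the 430 calls are no sign of pairing. Fads2, Me1, Acaca and Gpam had few reads, which limits their precision.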
